A study of Mus musculus with 9 samples.

Results

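The report covers 10 imprinted genes that are often described together as a growth-regulating network: H19, Meg3, Dlk1, Peg3, Peg10, Mest, Plagl1, Zim1, Ndn and Nnat. They were measured by the probe sets of the array platform that carry a single gene symbol from this list. A probe set is a group of short oligonucleotides on the array that together report 1 transcript, and its signal is a brightness on a linear scale. Of the 10 genes, 9 had such a probe set, 33 probe sets in all out of 45037 that are not controls. For H19 the only match was a probe set annotated to both H19 and Mir675, the microRNA that H19 carries, so no value is given for H19. Meg3 had 11 probe sets, Ndn 8, Peg3 5, Plagl1 3, Dlk1 2, and Peg10, Mest, Zim1 and Nnat 1 each.

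Total RNA of BC3H1, a mouse line from a brain tumour with muscle-like properties, was hybridised to 9 arrays, 3 in each of 3 groups. Rapamycin inhibits mTOR complex 1, a kinase complex that couples nutrients and growth factors to cell growth. The RS_DMSO group was rapamycin-sensitive BC3H1 cells given the solvent DMSO for 24 h, and the RS_Rap group was the same sensitive cells given 100 nM rapamycin for 24 h. The RR_Rap group was RR1, a resistant line grown out of BC3H1 over 6 months in 1 uM rapamycin and kept in 1 uM rapamycin. There was 1 resistant line and no resistant group without the drug was analysed here, so line, drug, dose and months of culture cannot be told apart in its comparisons. The labels do not say that the 3 arrays of a group were separate cultures, so a p-value reflects only how far these arrays scatter, and part of that scatter may be technical. The 3 comparisons share groups with one another and are not independent.

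Imprinted genes are transcribed mainly from the copy inherited from a single parent, a state set by DNA methylation laid down in the germ line. Many of them act on fetal and placental growth, and several of the genes here are strongly expressed in embryonic muscle, placenta or brain and fall after birth. Dlk1, Peg3, Peg10, Mest, Plagl1, Ndn and Nnat are known as paternally expressed genes, and H19, Meg3 and Zim1 as maternally expressed ones. The arrays do not separate parental copies, so every value is the sum over both.

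The promoter sequences of Peg3, of its neighbour Zim1 and of Meg3 are shown because Peg3 was the gene of the list that moved, because Zim1 lies next to it and stayed dim, and because 1 of the 2 annotated Meg3 starts shares a motif with Peg3. Each runs from 250 bases before to 50 bases after the annotated start, 5′ to 3′ on the strand of the gene, from RefSeq on GRCm38.p6. Capitals mark TGACGTCA, the cyclic AMP response element, which reads the same on both strands, and CCAAT on either strand, which appears as ATTGG when it lies on the opposite strand. The Peg3 window is chr7:6730370-6730669 on the minus strand, the Zim1 window chr7:6696383-6696682 on the minus strand and the Meg3 window shown chr12:109540746-109541045 on the plus strand.
Peg3: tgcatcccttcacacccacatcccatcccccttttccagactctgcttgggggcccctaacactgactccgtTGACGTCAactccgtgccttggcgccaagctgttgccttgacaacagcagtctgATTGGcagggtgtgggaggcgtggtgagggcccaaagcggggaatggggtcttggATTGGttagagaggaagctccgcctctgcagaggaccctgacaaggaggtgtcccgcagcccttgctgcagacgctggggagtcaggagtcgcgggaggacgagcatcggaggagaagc
Zim1: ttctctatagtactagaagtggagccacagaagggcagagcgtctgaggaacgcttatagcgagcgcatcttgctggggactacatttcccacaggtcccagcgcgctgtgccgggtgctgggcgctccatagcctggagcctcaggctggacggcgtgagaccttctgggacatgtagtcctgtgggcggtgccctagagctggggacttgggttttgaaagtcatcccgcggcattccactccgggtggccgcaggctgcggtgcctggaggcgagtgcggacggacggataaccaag
Meg3: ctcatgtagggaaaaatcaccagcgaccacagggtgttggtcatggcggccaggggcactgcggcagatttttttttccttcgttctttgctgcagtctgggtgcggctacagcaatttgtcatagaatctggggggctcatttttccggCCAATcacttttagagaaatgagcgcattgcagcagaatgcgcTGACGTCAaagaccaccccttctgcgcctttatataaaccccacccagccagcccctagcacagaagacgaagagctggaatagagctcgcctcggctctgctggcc

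The Peg3 window held 1 TGACGTCA, ending 170 bases before the start, and 2 CCAAT, both on the opposite strand. In the Meg3 window shown, 1 TGACGTCA ended 49 bases before the start and 1 CCAAT lay further upstream. The window of the other annotated Meg3 start, chr12:109545148-109545447, held neither motif and had 1 CpG. The Zim1 window held neither motif. Over 32851 promoter windows of 300 bases, 1.79% held TGACGTCA and 37.4% held CCAAT. Both motifs were picked after the sequences had been read, and a match is a string of letters, not a shown binding site. The Peg3 window had 13 CpG dinucleotides, the site of imprinting methylation, and a GC content of 61.3%; the Meg3 window shown had 13 CpG and the Zim1 window 20, against a median of 7 over all windows. Peg3 is transcribed away from Usp29, a paternally expressed ubiquitin protease gene: the starts lie 164 bases apart and 263 bases of both windows overlap. Windows were found for 8 of the 10 genes, and those of the members ranged from 1 to 26 CpG.

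Probe sets were tested when their mean log2(signal + 16) over the 9 arrays lay above the 40th percentile of all probe sets, a limit that corresponds to a signal of 22.2. Of the 33 probe sets, 11 passed: 5 of 11 for Meg3, 3 of 5 for Peg3, and 1 each for Dlk1, Mest and Ndn. Peg10, Plagl1, Zim1 and Nnat had none above the limit and were not tested, except in an alternative setting without a filter. The 5 genes that passed are therefore not the whole list, and counts over them describe only those 5. A gene was called when limma's adjusted p was under 0.05, with p adjusted over all 12715 genes tested.

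**Figure D1:**
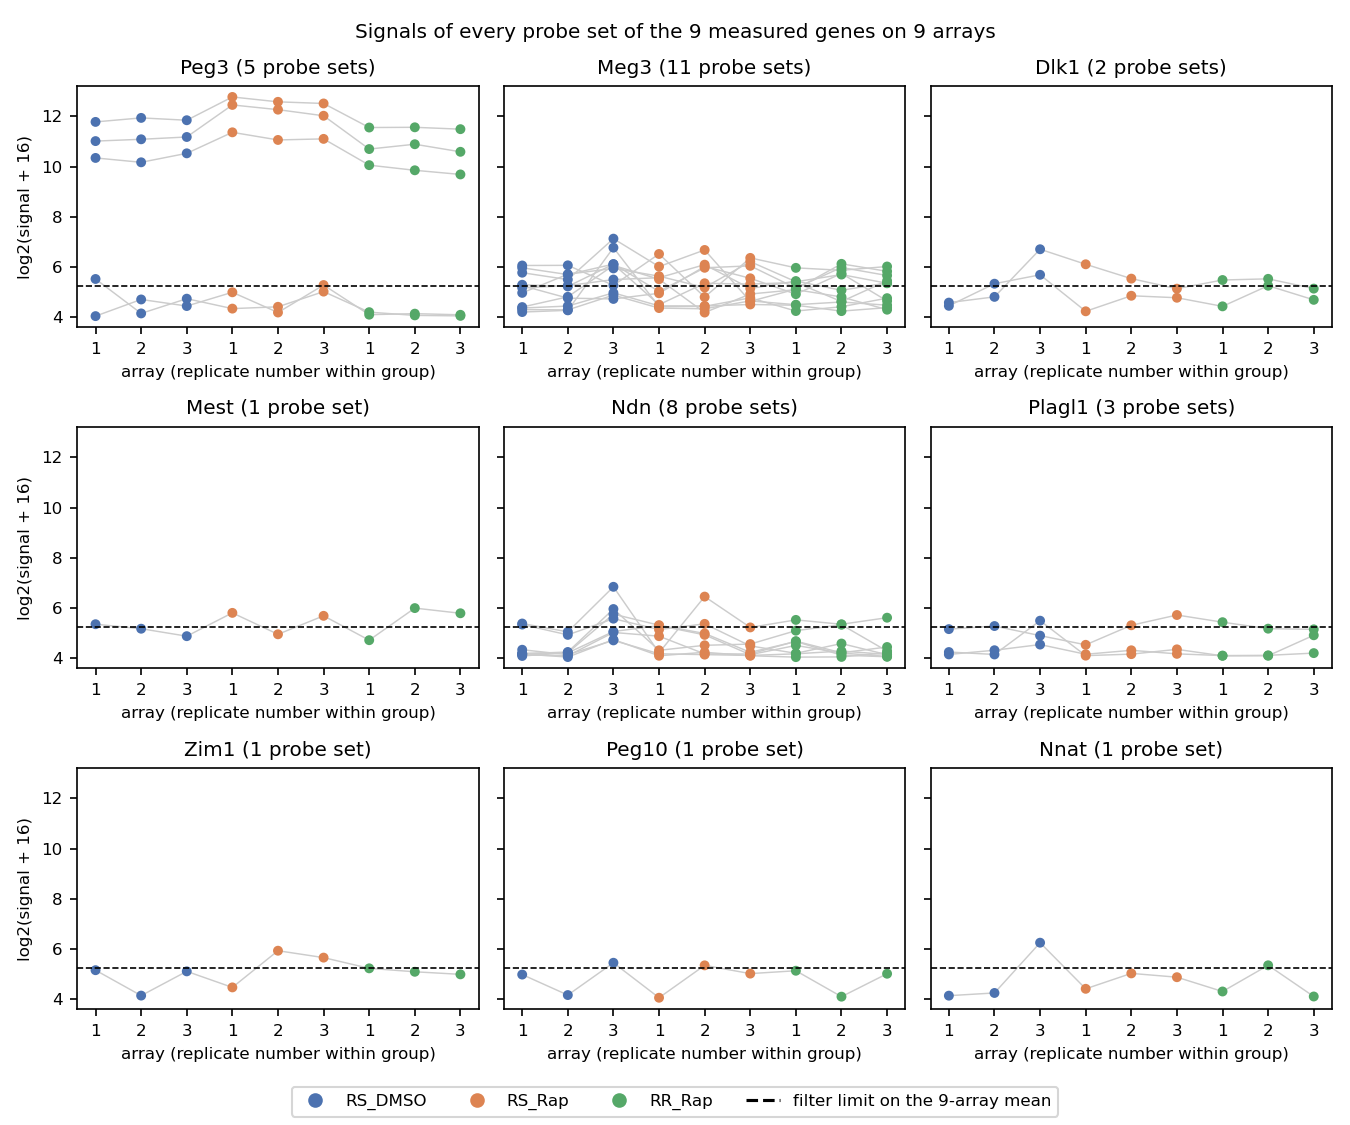
Log2(signal + 16) of every probe set of the 9 measured genes on each of the 9 arrays, with arrays numbered within their group and a grey line joining 1 probe set across arrays; the dashed line is the filter limit on the 9-array mean. Of the 5 Peg3 probe sets, 3 stand far above the limit on all arrays, while the probe sets of the other 8 genes scatter around or below it.

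Peg3, a zinc finger transcription factor gene, was the only one of the 5 tested genes that was called in any comparison. Its signal was highest in sensitive cells after 24 h of rapamycin, intermediate in DMSO and lowest in the resistant line. This order held for each of its 3 probe sets above the filter, and neighbouring groups in it did not overlap. How many of all tested genes have this order, or groups apart in this way, was not counted. Neither is read as particular to Peg3 or to the genes said below to share its order.

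On the brightest Peg3 probe set, 1433924_at, the signals were 3496, 3908 and 3663 in RS_DMSO, 6979, 6098 and 5828 in RS_Rap, and 2992, 3010 and 2858 in RR_Rap. All 3 rapamycin-treated sensitive arrays lay above all DMSO arrays, and all 3 resistant arrays lay below them. The means were 3689 ± 207, 6302 ± 602 and 2954 ± 82.9 (SD, n = 3). On the second probe set, 1417355_at, RS_DMSO read 2052, 2157 and 2300.0, RS_Rap 5597, 4910 and 4146, and RR_Rap 1643, 1880 and 1523. Again no array of 1 group reached the range of another. On 1417356_at RS_DMSO read 1283, 1135 and 1459, RS_Rap 2618, 2118 and 2182, and RR_Rap 1048, 907 and 808, with the same order and no overlap. The coefficients of variation within groups ran from 2.81% to 14.9% over these probe sets. These probe sets report the same RNA preparations and are not independent replicates.

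**Figure D2:**
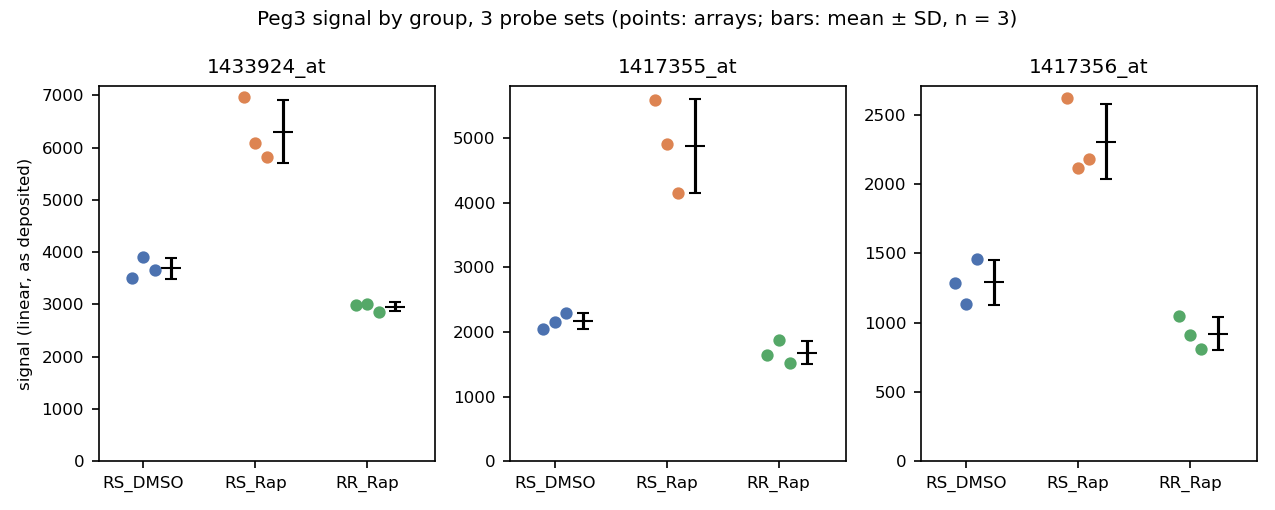
Linear signal of the 3 Peg3 probe sets above the filter, by group, with a point for each array and bars for the mean ± SD of 3 arrays. In each panel the RS_Rap points lie above the RS_DMSO points and the RR_Rap points below them, without overlap.

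After 24 h of rapamycin Peg3 was 0.77 ± 0.08 higher on the log2 scale than in DMSO (limma, SE; 95% interval 0.60 to 0.94, adjusted p = 7.94e-07). That comparison called 1 of the 5 tested genes of the list, against 35.6% of all tested genes, 20.4% higher and 15.2% lower. A called rise at least as large as that of Peg3 was seen in 612 genes, or 4.81% of those tested. When each probe set was tested for itself, which called 28% of 27022 probe sets, all 3 passed, but their sizes differed. The signal ratios were 1.71 for 1433924_at, 2.25 for 1417355_at and 1.78 for 1417356_at, and the log2 changes of the latter pair were 1.16 ± 0.10 and 0.83 ± 0.11 (adjusted p = 2.02e-07 and 2.04e-05). The direction and the call held in each of 20 alternative settings, over which the change ranged from 0.69 to 0.92.

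In the resistant line Peg3 was slightly lower than in DMSO-treated sensitive cells, with a log2 change of -0.32 ± 0.08 (95% interval -0.49 to -0.15, adjusted p = 0.00289). Resistant cells had 0.801 of the DMSO signal on 1433924_at, 0.775 on 1417355_at and 0.713 on 1417356_at. This was a small change for the comparison, in which 51.8% of all tested genes were called, 25.9% higher and 25.8% lower, and 43.7% of probe sets: 3044 genes, 23.9% of those tested, fell at least as far with a call. The call depended on scaling. With each array centred on its 75th percentile the Peg3 difference was -0.22 and was no longer called (adjusted p = 0.0598), while the other 19 of 20 alternatives kept it, with values down to -0.44.

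The widest gap was between the rapamycin groups, where Peg3 was lower in resistant than in treated sensitive cells, with a log2 change of -1.09 ± 0.08 (95% interval -1.25 to -0.92, adjusted p = 2.09e-09). The resistant signal was 0.469, 0.344 and 0.399 of that of treated sensitive cells on 1433924_at, 1417355_at and 1417356_at. This comparison called 56.5% of all tested genes, 26.4% higher and 30.1% lower, and 47.7% of probe sets; 1544 genes, or 12.1%, fell at least as far as Peg3 with a call. Every alternative kept the call, with changes from -1.31 to -0.95. The dose also differed, 100 nM for 24 h against 1 uM kept on for months, so this gap is not a comparison at a matched dose.

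The remaining 2 Peg3 probe sets, 1447731_at and 1447732_x_at, stayed below the filter, with signals of 0.463 to 22.8 and 0.569 to 29.9. On both, the 3 resistant arrays lay below the 3 arrays of treated sensitive cells, at 1.07 to 1.62 against 2.19 to 22.8 and at 0.569 to 2.36 against 4.25 to 16.4. In DMSO both probe sets overlapped each of the other groups. These signals lie near or under the filter limit and the differences were not tested. How often dim probe sets separate in this way was not counted, and nothing about Peg3 is read from them.

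Markers of cell type and a sign of RNA integrity also differed between groups. Summed signals of 8 fibroblast markers were 31112 to 37969 in RS_DMSO, 42071 to 49267 in RS_Rap and 16701 to 18490 in RR_Rap, the same order as Peg3. The collagen genes Col1a1, Col1a2 and Col3a1 made up nearly all of that sum. Dcn and Pdgfra had the same order of means, while Lum and Fap were below the filter. Thy1 was flat, at means of 24.1, 23.8 and 25.6 in RS_DMSO, RS_Rap and RR_Rap. Summed signals of 10 smooth muscle markers, of which Myh11 and Myocd were below the filter, were 28944 to 37715, 36603 to 38072 and 11472 to 13058; the sensitive groups overlapped and only the resistant arrays lay apart. The 3′ minus 5′ difference of the Actb control probe sets, a sign of RNA integrity, was 0.146 to 0.222 on the 6 sensitive arrays and 0.316 to 0.347 on the resistant ones (log2), which again set only the resistant line apart. The part of these in the Peg3 differences was not tested. In RNA from a whole culture, fewer cells of a type and less RNA per cell cannot be told apart.

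Markers of the labelled muscle-like character were mixed. Acta2, smooth muscle actin, read 11977 to 16986 in RS_DMSO, while 5 of 14 skeletal muscle markers, Myod1, Myf6, Pax7, Chrnd and Myh3, stayed below the filter. The 14 summed to 2404 to 2922 in RS_DMSO, 2316 to 2685 in RS_Rap and 2066 to 2133 in RR_Rap. Single skeletal markers moved both ways in the resistant line: of 9 tested against DMSO cells, 4 were higher (Tnnt1, Tnnt3, Myog and Ckm) and 3 lower (Chrna1, Acta1 and Des), with a median change of 0.29. The signal of Tnnt1, a slow muscle troponin, went from 25.4 ± 23.2 to 403 ± 53.7 (SD, n = 3). That of Myog, a muscle transcription factor gene, went from 6.50 ± 4.85 to 98.9 ± 9.51, and that of Chrna1, an acetylcholine receptor subunit, from 529 ± 55.4 to 15.1 ± 13.6. The share called, 77.8%, stood beside 51.8% of all tested genes. Of the other lists, 6 of 9 neuron and glia markers, 1 of 6 endothelial, 3 of 6 haematopoietic and 4 of 6 epithelial markers passed the filter. Their summed signals were at most 921, 228, 615 and 696. Array RS_DMSO 3 stood apart at low signals: its median was 66.0 against 33.3 to 44.2 on the other 8 arrays, and 17.4% of its probe sets were below 16 against 29.4% to 34.8%. Without it the Peg3 changes against DMSO were 0.76 (adjusted p = 1.25e-06) and -0.32 (adjusted p = 0.00241). That array matters more for the dim genes: of the 22 probe sets of the list below the filter, 16 had their highest signal on it.

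The long noncoding RNA Meg3, which lies with Dlk1 in an imprinted cluster on chromosome 12, had 5 probe sets above the filter limit and 6 below it, with signals from 2.17 to 124 over all 11. The probe set used for the gene, 1426758_s_at, read 50.6, 50.9 and 22.5 in RS_DMSO, 75.6, 11.8 and 66.2 in RS_Rap, and 46.4, 42.4 and 48.8 in RR_Rap. The spread within a group exceeded any gap between groups, and all groups overlapped. Log2 changes were 0.10 (95% interval -0.80 to 0.99, adjusted p = 0.892) after rapamycin, 0.15 (-0.74 to 1.05, adjusted p = 0.793) in resistant against DMSO cells, and 0.06 (-0.84 to 0.95, adjusted p = 0.925) in resistant against treated sensitive cells. Nothing smaller than about a 2-fold change could be told from the scatter of Meg3 between arrays. On the other 4 Meg3 probe sets above the filter the changes lay between -0.44 and 0.29, without a call, and the highest Meg3 signal, 124 on 1429257_at, came from RS_DMSO 3.

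Dlk1, a membrane protein related to Notch ligands that restrains fat cell formation, was measured by 1449939_s_at above the filter and 1442724_at below it. The former read 7.91, 12.0 and 88.4 in RS_DMSO, 52.9, 30.4 and 19.1 in RS_Rap, and 28.6, 30.1 and 19.2 in RR_Rap. A single DMSO array, RS_DMSO 3, gave the highest value and the other DMSO arrays the lowest. The changes were 0.23 (95% interval -0.86 to 1.32), 0.02 (-1.07 to 1.11) and -0.21 (-1.30 to 0.88) in the order above, none called. Leaving out RS_DMSO 3 moved the Dlk1 changes against DMSO to 0.90 (adjusted p = 0.104) and 0.69 (adjusted p = 0.182), still without a call. The other probe set ranged from 2.81 to 35.5.

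Mest, an imprinted member of the alpha/beta hydrolase family, read 24.8, 20.1 and 13.4 in RS_DMSO, 39.9, 14.9 and 35.5 in RS_Rap, and 10.3, 47.7 and 39.3 in RR_Rap on its only probe set. The resistant group held both the lowest and the highest Mest signal of the series, and all groups overlapped. The changes were 0.35 (95% interval -0.61 to 1.30, adjusted p = 0.601), 0.37 (-0.59 to 1.32, adjusted p = 0.531) and 0.02 (-0.94 to 0.97, adjusted p = 0.976).

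Ndn encodes necdin, a MAGE family protein of postmitotic neurons and muscle, and passed the filter on 1 of 8 probe sets, 1437853_x_at. Signals there were 25.6, 17.1 and 98.7 in RS_DMSO, 2.57, 71.6 and 21.4 in RS_Rap, and 30.0, 24.8 and 32.9 in RR_Rap. The sensitive groups each spanned most of the range, and the resistant arrays sat together in its middle. Changes of -0.46 (95% interval -1.62 to 0.70), -0.26 (-1.42 to 0.90) and 0.20 (-0.96 to 1.36) were not called, and without RS_DMSO 3 the changes against DMSO were 0.08 and 0.28, with the sign turned. On the dim probe set 1435382_at the resistant arrays read 2.29, 7.95 and 1.60 against 24.5, 14.4 and 31.6 in DMSO, without overlap. This was the only dim Ndn probe set whose groups separated in any comparison, and it was not tested. How often dim probe sets separate in this way was not counted, and no fall of Ndn is read from it. The 7 dim Ndn probe sets together ranged from 0.460 to 46.1, and the highest array of the gene was RS_DMSO 3 on 7 of its 8 probe sets.

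Plagl1, a zinc finger transcription factor known as a regulator of other imprinted genes, had 3 probe sets below the filter. The highest of them on average, 1438588_at, read 19.7, 22.8 and 13.8 in RS_DMSO, 7.12, 23.7 and 36.7 in RS_Rap, and 27.2, 20.1 and 19.5 in RR_Rap, with overlapping groups. The others ranged from 1.06 to 29.0. Zim1, the zinc finger gene next to Peg3 with no annotated gene between them, read 19.6, 1.65 and 18.5 in RS_DMSO, 6.14, 44.9 and 34.4 in RS_Rap, and 21.5, 18.1 and 15.7 in RR_Rap. All groups overlapped for Zim1, in contrast to the separated groups of Peg3, but no difference between the genes was tested. Peg10, a gene derived from a retrotransposon and required in the placenta, read 15.5, 1.92 and 27.7, then 0.635, 24.7 and 16.4, then 19.1, 1.14 and 16.3 in the same group order. Nnat, a small membrane protein gene set within an intron of Blcap, read 1.62, 2.98 and 60.1 in RS_DMSO, 5.29, 16.6 and 13.3 in RS_Rap, and 3.77, 24.7 and 1.22 in RR_Rap. For each of these genes all groups overlapped, and signals this low show neither presence nor absence of the transcript. Across 19 alternative settings Meg3, Dlk1, Mest and Ndn were not called in any comparison; a p that misses the threshold does not show that they stayed the same.

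**Figure D3:**
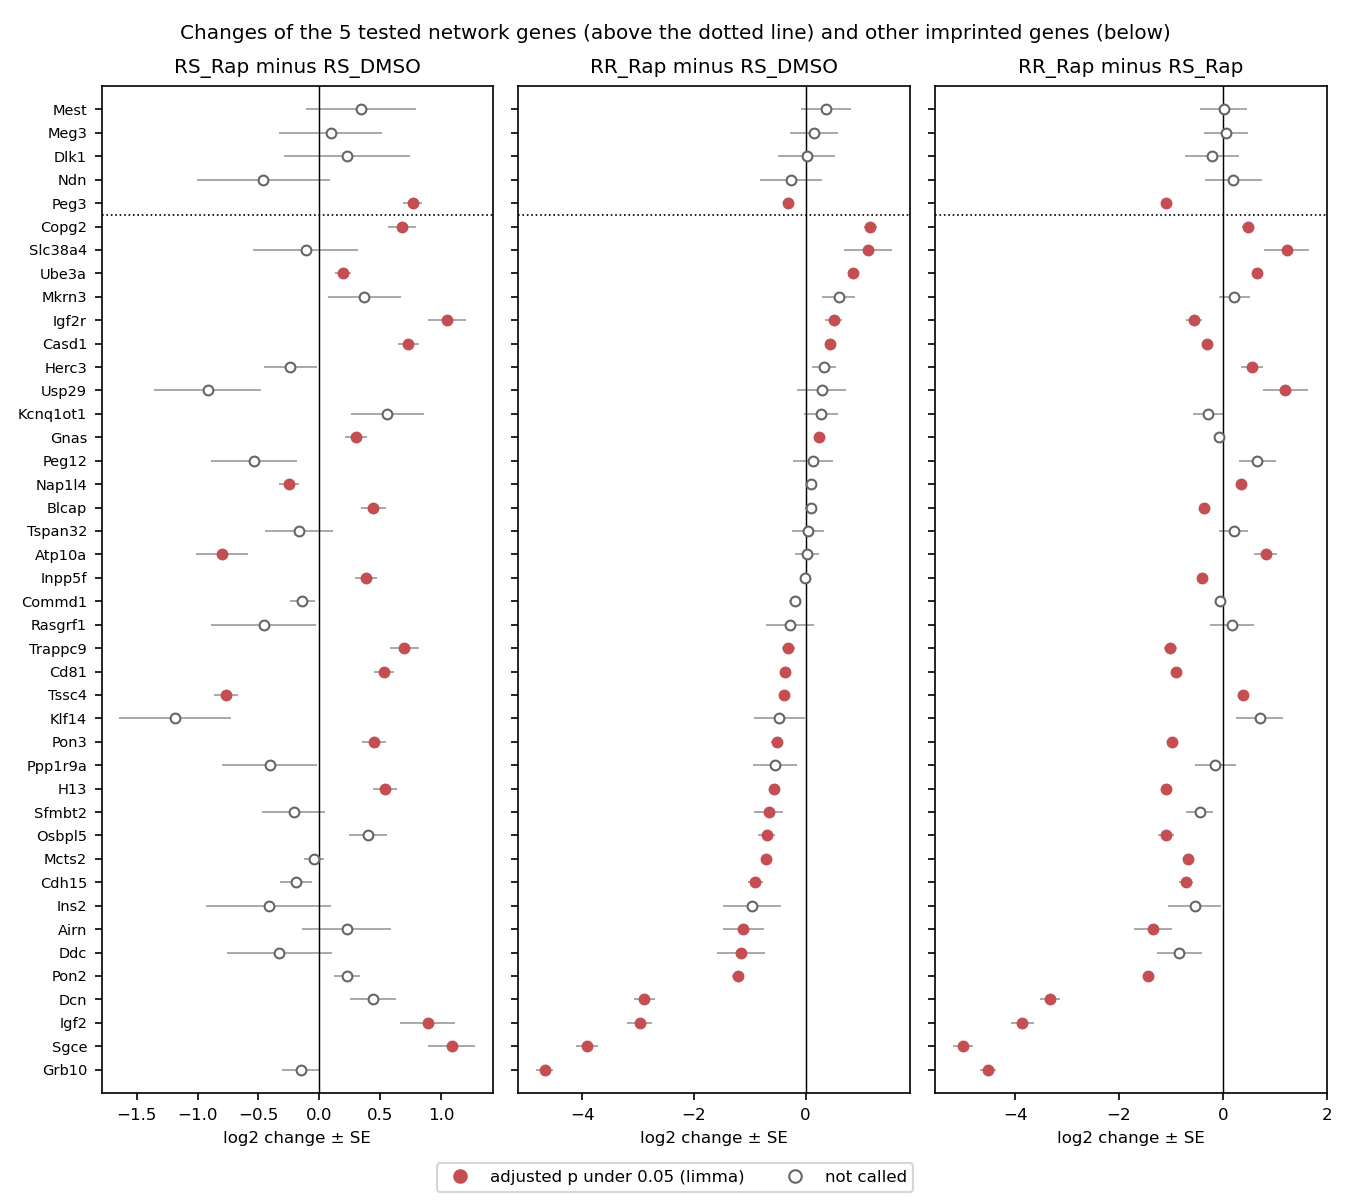
Log2 change ± SE of the 5 tested genes of the list (above the dotted line) and of 37 other imprinted genes (below), in each comparison, with filled points for an adjusted p under 0.05. Peg3 is the only filled point above the line, and Igf2, Sgce, Grb10 and Dcn reach the lowest values in the resistant line.

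Other imprinted genes, many of them in the same clusters, gave a wider set of changes. Of 64 listed, 54 had a probe set and 37 were tested. After rapamycin 13 were higher and 3 lower, or 43.2%, beside 35.6% of all genes, with a median change of 0.19 beside 0.03. In resistant against DMSO cells 6 were higher and 16 lower, or 59.5% beside 51.8%, with a median of -0.31 beside -0.07; against treated sensitive cells 8 were higher and 17 lower, or 67.6% beside 56.5%, with a median of -0.36 beside -0.08. Nothing particular to imprinted genes is read from these shares.

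Igf2, the fetal growth factor that shares enhancers with H19, had the same order of groups as Peg3. Its signals were 390, 538 and 575 in RS_DMSO, 991, 930.1 and 878 in RS_Rap, and 74.7, 61.5 and 23.5 in RR_Rap, without overlap. The log2 changes were 0.89 ± 0.23 (adjusted p = 0.00462), -2.97 ± 0.23 (adjusted p = 6.06e-09) and -3.86 ± 0.23 (adjusted p = 8.9e-11); the first was not called when eBayes was run without a trend (adjusted p = 0.0535). Sgce, the epsilon-sarcoglycan gene that borders Peg10 with no gene between them, read 436, 536 and 346, then 1013, 837 and 976, then 20.7, 17.1 and 5.74. Sgce rose by 1.09 ± 0.19 after rapamycin (adjusted p = 0.000251) and was lower in resistant than in DMSO cells (-3.91 ± 0.19, adjusted p = 2.35e-11). Its resistant signals were below the filter limit, so the added 16 sets the size of that fall. Grb10, a maternally expressed adaptor of the insulin receptor, did not pass the test after rapamycin (-0.15 ± 0.15, adjusted p = 0.497). Its resistant signals were 30.3, 22.3 and 11.3 against 910, 911 and 912 in DMSO; the brightest probe set is given, and the other tested Grb10 probe sets fell by 1.44 and 1.78. The smooth muscle and fibroblast marker sums given above fell in the same arrays, and their part in these changes was not tested.

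**Figure D4:**
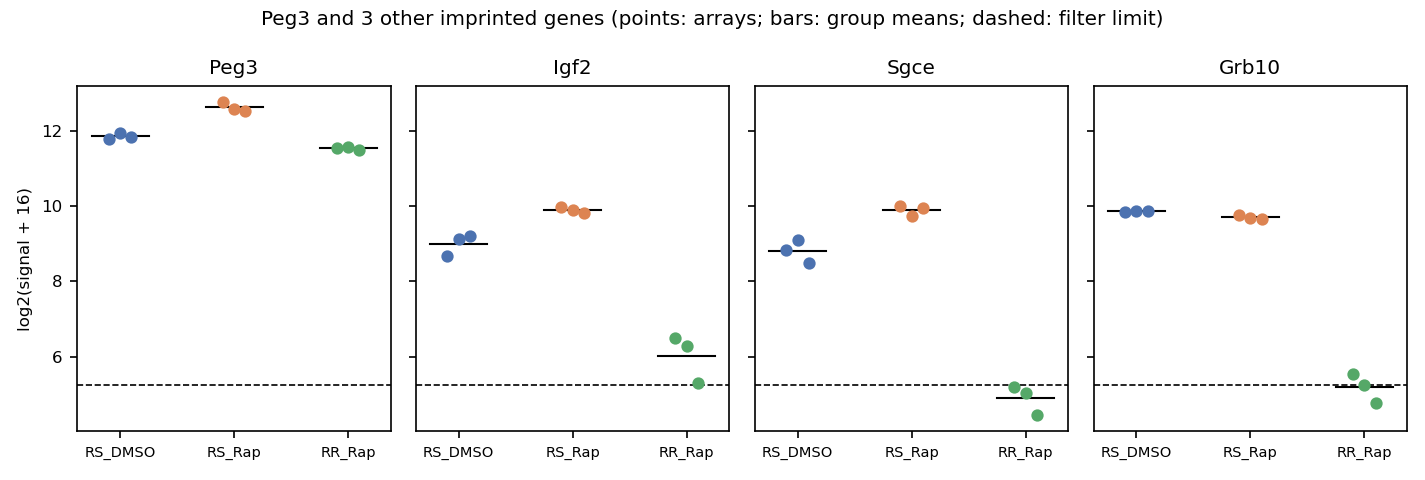
Log2(signal + 16) of Peg3, Igf2, Sgce and Grb10 by group, with a point per array, a bar at each group mean and a dashed line at the filter limit. Peg3, Igf2 and Sgce are highest in RS_Rap and lowest in RR_Rap, while Sgce and Grb10 reach the limit in RR_Rap and Peg3 stays far above it.

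At the Peg3 locus the nearest tested neighbours did not move as one. Zfp28, a zinc finger gene with 13 annotated genes between it and Peg3, had the Peg3 order, with changes of 0.61 ± 0.17 (adjusted p = 0.0104), -0.44 ± 0.17 (adjusted p = 0.0443) and -1.05 ± 0.17 (adjusted p = 4.67e-05). Its rise was not called without RS_Rap 2 (0.54, adjusted p = 0.0528) or with its probe sets averaged (0.24, adjusted p = 0.274), and its fall against DMSO was not called without any 1 of 8 arrays (all but RS_DMSO 2), at adjusted p from 0.0539 to 0.116. Usp29, which shares the Peg3 promoter region, read 34.2, 93.4 and 19.6 in RS_DMSO, 8.32, 21.0 and 16.3 in RS_Rap, and 63.9, 32.7 and 75.4 in RR_Rap. Usp29 was higher in resistant than in treated sensitive cells, by 1.20 ± 0.44 (adjusted p = 0.0265), while Peg3 was lower there. All RS_Rap signals of Usp29 were below the filter limit, so the size of its changes against RS_Rap depends on the added 16. That Usp29 call was lost without RS_Rap 1 (1.03, adjusted p = 0.0879), RR_Rap 1 (1.12, adjusted p = 0.0947) or RR_Rap 3 (1.02, adjusted p = 0.123). After rapamycin Usp29 changed by -0.92 ± 0.44 (adjusted p = 0.12), which passed the test only without RS_DMSO 3 (-1.27, adjusted p = 0.0211). Zfp78 and Aurkc, the further tested neighbours on either side, were not called.

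Some neighbours of the dim genes were called where the member was not tested or not called. That stood beside 35.6%, 51.8% and 56.5% of all tested genes called in the 3 comparisons. Nothing particular to these loci is read from it. Other neighbours, Ppp1r9a, Cpa4, Klf14, Wdr25, Gm19605 and Vstm2l, were not called in any comparison at the main setting. Beside Nnat, its host gene Blcap was 0.44 ± 0.10 higher after rapamycin (adjusted p = 0.00245). Also near Nnat, Ctnnbl1 was higher in the resistant line than in DMSO or treated sensitive cells (0.74 and 0.79). Src was higher in resistant than in DMSO cells (0.34), a call lost in several alternatives. Near Mest, with 1 gene between, Copg2, a coat protein subunit of transport vesicles, went from 239 ± 27.7 to 391 ± 27.0 and 553 ± 51.3 and was called higher in all 3 comparisons (0.68, 1.16 and 0.48). On the other side of Mest, also with 1 gene between, Cep41 went the other way. It was lower in the resistant line than in DMSO or treated sensitive cells (-0.79 and -0.95). Near Peg10, Pon3 had changes of 0.45, -0.52 and -0.97, all called, and Casd1 was 0.73 ± 0.09 higher after rapamycin. Near H19, the mitochondrial ribosomal gene Mrpl23 was 0.38 and 0.51 higher in treated sensitive and resistant cells than in DMSO. Igf2os, on the other side of H19, was lower in resistant than in treated sensitive cells (-0.88), a call lost in several alternatives. Around Plagl1, Ltv1, a ribosome assembly factor, was lower after rapamycin (-0.86 ± 0.08, adjusted p = 1.91e-07) and did not differ detectably between resistant and DMSO cells (0.01, adjusted p = 0.959). Also around Plagl1, Stx11 was lower in resistant than in DMSO or treated sensitive cells (-1.27 and -1.61). Zc2hc1b was lower in resistant than in DMSO cells (-1.19). Sf3b5 was lower after rapamycin (-0.35), a call lost without RS_Rap 1 and without the eBayes trend. It was higher in resistant than in treated sensitive cells (0.58). Near Dlk1, Wars, a tRNA ligase gene, was lower after rapamycin (-0.48, adjusted p = 0.00231) and higher in resistant than in treated sensitive cells (0.73, adjusted p = 1.44e-05). On the far side of Meg3, with 102 annotated genes between, Ppp2r5c was called in all 3 comparisons (-0.34, 0.36 and 0.70). With its probe sets averaged, Ppp2r5c was called in none (-0.16, -0.06 and 0.10). Of the neighbours of Ndn, Mkrn3, Peg12 and A230006K03Rik, the last with 25 annotated genes between, were not called. Snhg14, with 246 annotated genes between it and Ndn, was called between the rapamycin groups (-0.72, adjusted p = 0.0371). That call was lost without RS_Rap 1 or 3 or any 1 resistant array (changes from -0.78 to -0.62, adjusted p from 0.0649 to 0.136). The Snhg14 call was also lost without a filter (adjusted p = 0.0861) and with 75th percentile centring (-0.59, adjusted p = 0.0872). Quantile normalization removed it too (-0.50, adjusted p = 0.183). Peg12 was called between the rapamycin groups only without RR_Rap 2 (0.95, adjusted p = 0.0466) or after quantile normalization (0.84, adjusted p = 0.0396).

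Some genes that belong to the same biology could not be read. Cdkn1c and Phlda2, growth-restraining genes of the Kcnq1 cluster, and Rian, a noncoding RNA of the Meg3 cluster, stayed below the filter; their signals ranged over 2.32 to 27.7, 1.73 to 48.7 and 0.856 to 54.7. For Dio3 there was no probe set with a single symbol. Igf2r, the receptor that clears Igf2, went from 138 ± 13 to 305 ± 63.5 and 201 ± 2.68, with changes of 1.05 ± 0.16, 0.50 ± 0.16 and -0.55 ± 0.16, all called. The last call was lost without RS_Rap 1 (-0.39, adjusted p = 0.053) and after quantile normalization (-0.41, adjusted p = 0.0602), and the middle one with its probe sets averaged (0.39, adjusted p = 0.0647). Gnas, the stimulatory G protein subunit, was 0.30 ± 0.09 higher after rapamycin (adjusted p = 0.0137), a call lost without RS_Rap 2 (0.29, adjusted p = 0.0529), with 75th percentile centring (0.27, adjusted p = 0.0879) and with its probe sets averaged (0.29, adjusted p = 0.0883).

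Enzymes and factors that keep imprinting marks were mostly higher in the resistant line. All 9 tested genes of that list were called higher in resistant than in DMSO cells (7 to 9 over 20 alternatives), beside 25.9% of all tested genes, with a median of 0.85 beside -0.07 for all genes. Dnmt1, the maintenance DNA methyltransferase, read 910 ± 32.8, 407 ± 50.1 and 1710 ± 85.1 in RS_DMSO, RS_Rap and RR_Rap, and its partner Uhrf1 615 ± 83.2, 89.0 ± 27.9 and 1120 ± 54.8. Both therefore ran opposite to Peg3, lowest after rapamycin and highest in the resistant line, with changes of -1.14 and -2.61 after rapamycin and 0.90 and 0.85 in resistant against DMSO cells. Across the list 3 genes were higher and 4 lower after rapamycin (2 to 3 and 3 to 5 over the alternatives), or 77.8% called beside 35.6% of all genes. Of the higher genes, Dnmt3a was called only narrowly (adjusted p = 0.0496) and lost its call in many alternatives. In resistant against treated sensitive cells 6 were higher and 0 lower (5 to 8 higher over the alternatives), or 66.7% called beside 56.5%. DNA methylation was not measured.

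Partners and pathways of the other genes gave mixed counts. Among Notch pathway genes, listed because Dlk1 is related to Notch ligands, 16 were tested: 5 higher and 1 lower after rapamycin, 3 and 4 in resistant against DMSO cells, and 2 and 3 between the rapamycin groups. The shares called, 37.5%, 43.8% and 31.2%, were near or below the 35.6%, 51.8% and 56.5% of all genes. These counts moved between alternatives, from 2 to 5 and 0 to 3 in the first comparison and from 2 to 6 and 3 to 6 in the second. The receptor gene Notch3 was higher after rapamycin (0.88) and the target Hes1 lower in the resistant line (-1.73). Of 6 tested fat cell genes, listed for Dlk1 and Mest, 2, 1 and 2 were higher and 1, 4 and 4 lower in the 3 comparisons; over the alternatives the counts of higher genes did not move and those of lower genes were 0 to 1, 2 to 4 and 2 to 4. With only 6 genes, the shares called were 50%, 83.3% and 100%, beside 35.6%, 51.8% and 56.5% of all genes. Cebpd, an early fat cell transcription factor, had the Peg3 order (0.84, -1.74 and -2.58), while the lipase Lpl rose in all 3 (0.57, 1.00 and 0.44). Of 3 tested genes around H19 and let-7, 0, 2 and 1 were called in the 3 comparisons. Hmga2 was lower in the resistant line than in either sensitive group (-0.63 and -0.62), Igf2bp1 was not called, and Igf2bp3 was called in resistant against DMSO cells (0.33, adjusted p = 0.0255), a call lost without RS_DMSO 3 (0.24, adjusted p = 0.0874) or RR_Rap 1 (0.27, adjusted p = 0.112).

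Likeness of pattern was read as the Pearson correlation of log2 values over the 9 arrays, among 7794 tested genes whose values ranged over at least 1. The arrays fall into 3 groups, so these points share their group. The genes most like Peg3 were Ahnak2 (0.993), Tmed10 (0.991) and Tmem150a (0.991). Tmed10, a cargo receptor of the early secretory pathway, went from 1222 to 1927 and 973, and Ahnak2 from 102 to 360 and 52. Both kept the Peg3 order of groups, which follows from their being picked for likeness to Peg3. Among the dim genes, the top match of Meg3 was 1700023D09Rik (0.929), that of Dlk1 Limch1 (0.973), that of Mest Wdr95 (0.906) and that of Ndn St8sia3 (0.966). After rapamycin none of these last matches was called, with changes from -0.43 to 0.22. They were picked for likeness to genes that were not called, so this adds no evidence. Every match named here was picked from the top of 7794 correlations over 9 arrays. How high such a top value runs from scatter alone was not tested. The highest Dlk1 signal came from RS_DMSO 3. No shared regulation is read from any of these matches, those of Peg3 included.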

How the data were processed

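The authors deposited 1 linear intensity (signal) per probe set and array, made with GCOS 1.4 per the submitters' processing notes; for the summary algorithm, the sources used here name no settings. The deposited values had a trimmed mean of 250 on every array (2% left out at either end), and were kept without further scaling. Detection calls and scan batches were not used here. Of 45101 probe sets, 64 were controls; in the platform annotation 34945 carried 1 gene symbol, 932 several and 9160 none, and only those with 1 were named.

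Values were taken as log2(signal + 16), probe sets were kept if their mean exceeded the 40th percentile, and each gene took its probe set of highest mean. The 12715 genes were tested with limma 3.58.1 in R 4.3.3 (lmFit, eBayes with trend) over all 9 arrays, with Benjamini-Hochberg adjustment within each comparison; single probe sets came from the same model on 27022 probe sets. The script was tested on simulated data. The number of arrays limits the precision. Replicate numbers did not pair the arrays: same-numbered deviations correlated between -0.0845 and 0.0151.

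Members and lists were chosen with earlier results of these data known. Genes that could be named were set by rule. They were all members, a fixed set of imprinted genes, and up to 4 called genes of largest change per list and comparison. To these came the 3 genes most correlated with each tested member, and up to 2 tested neighbours on each side in RefSeq gene order. Not every gene that met the rule is named in the text. Marker lists covered smooth and skeletal muscle, fibroblast, neuron and glia, endothelial, haematopoietic and epithelial cells.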

Additional observations from a re-analysis of the deposited data

How the results depend on the processing

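Settings varied were the pseudocount (1 or 64), the filter (none or the 60th percentile), centring on the 75th percentile, quantile normalization, averaging of the probe sets of a gene, a fit of all probe sets, eBayes without trend, fits of only the 2 groups compared, the replicate block, and each array left out. The count of network genes called stayed at 1 in each comparison under each setting run, except for resistant against DMSO cells with 75th percentile centring, where it was 0 (Peg3, -0.22, adjusted p = 0.0598 by limma); 6581 genes were called in that comparison at the main setting. That centring moved the median of all genes between the rapamycin groups from -0.08 to 0.05. Of 4590 values for single named genes under alternatives, 4219 kept direction and side of the threshold, 95 stayed uncalled with the sign turned, 205 lost the call in the same direction and 67 gained it. In 4, all with probe sets averaged, a called change turned sign and lost its call: Casd1 (-0.0775), Smchd1 (-0.0716) and Ppp2r5c (-0.0614) in resistant against DMSO cells, and Ube3a (-0.00709) after rapamycin. The cause was not tested. Counts of other imprinted genes ranged over 13 to 19, 16 to 23 and 22 to 26 in the 3 comparisons; the replicate block gave 16, 20 and 25 and changed no call of the network genes. At the main setting probe sets under the filter limit were not tested. Without a filter 9 network genes were tested in place of 5, each by its probe set of highest mean, and only Peg3 was called. At such low signals a missed threshold does not show that the other genes stayed the same.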
